A study of Mus musculus with 12 samples.

Results

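Positional factors are transcription factors that tell an embryonic cell where in the body it lies. The 44 genes described here are the members of the HoxA, HoxB and HoxC clusters and of the Meis, Pbx, Iroquois (Irx), T-box (Tbx), Twist, Prrx, Msx, Meox, Dlx and Lhx families, together with Six4 and Six5, as far as they were detected in mouse embryonic fibroblasts (MEFs). They were chosen by gene symbol and by detection. Of 79 genes with such a symbol and a probe on the array, 44 passed a detection p-value of 0.05 on both arrays of 1 or more groups, and each was read with its brightest probe. They were 44 of 10031 features tested. The other 35 genes of these names were not detected in any group.

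RNA was measured on 12 Illumina MouseRef-8 v2.0 BeadChips, which read 1 colour. The MEFs came from mid-gestation C57BL/6 embryos and were immortalized by serial passage (the 3T3 protocol). There were 3 genotypes, WT, Rela-/-Nfkb2-/- cells that lack the NFκB subunit RelA and the precursor p100, and Rela-/-Relb-/-Rel-/- cells that lack RelA, RelB and cRel. Each was left untreated or given recombinant TNF at 10 ng/ml for 6 h, with 2 arrays in each of the 6 groups. All lines share the strain, the passage regime and the culture medium. The sources used here do not give the region of the embryo behind each line. A genotype may be a single immortalized line here, and then line and genotype cannot be told apart. In bulk RNA, fewer cells of a type and less RNA per cell cannot be told apart either. Separate cultures are nowhere stated for arrays of the same group, so the p-values cover the spread among these arrays alone, and it can be technical.

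Between 11637 and 12599 of 25697 probes (45.3% to 49.0%) were above background on an array, which here means a detection p-value under 0.05. Rela read 12.60 to 13.22 on the 4 WT arrays and 10.05 to 10.80 on the 8 mutant arrays on the log2 scale, and of the 4 arrays of Rela-/-Relb-/-Rel-/- cells 1 was above background for Relb. Nfkb2 was above background in all lines and Rel in none, and whether the probes lie inside the deleted parts was not determined, so they do not check the genotypes. The fibroblast markers Col1a1, Col1a2, Col3a1, Vim, Dcn and Pdgfra were above background on all 12 arrays, Thy1 on the 4 arrays of Rela-/-Nfkb2-/- cells alone, Fap on 0, and the leukocyte marker Ptprc and the endothelial markers Pecam1 and Cdh5 on 0. Of 6 epithelial markers with a probe, 4 were above background on both untreated Rela-/-Relb-/-Rel-/- arrays and 2 in the other untreated lines. The summed linear signal of the 6 was 4060 to 4440 in untreated Rela-/-Relb-/-Rel-/- cells, 274 to 281 in untreated WT cells and 403 to 418 in untreated Rela-/-Nfkb2-/- cells. Krt8 and Krt14 read 11.33 and 10.16 in the first and were not above background in the others, while Krt5 and Krt18 were at background on all 12 arrays.

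Hox genes lie in clusters on different chromosomes, and the order of the genes in a cluster follows the order in which they are used along the body axis. Cultured fibroblasts keep much of the Hox pattern of the body site they were taken from. The Meis and Pbx proteins bind DNA together with Hox proteins, whereas Twist, Prrx, Msx and T-box proteins mark and shape the mesenchyme of the limbs, the face and the body wall.

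Values below are log2 signals after background correction and quantile normalization, differences are log2 differences, and values after ± are standard errors of a limma fit with n = 2 arrays in each group. A gene "rose", "fell" or "differed" at an adjusted p under 0.05 (limma, Benjamini-Hochberg over all features in a comparison). Where a gene was above background on neither array of the dimmer group, its ratio can only be bounded from below ("at least"), and the bound sets the brighter group against the higher of the gene's own signal and the dimmest signal above background. No ratio is given where neither group was above background.

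Detection alone separated the 3 lines. Of the 44 genes, 12 (27.3%) were above background on all 12 arrays, against 73.9% of all features. These were the TALE homeobox genes Meis1, Meis2, Pbx2 and Pbx3, together with Hoxa4, Hoxa13, Irx2, Twist1, Prrx1, Dlx1, Dlx2 and Six5. A further 10 genes (22.7%, against 2.26% of all features) were above background on both untreated WT arrays and on neither untreated Rela-/-Nfkb2-/- array. These were 6 of the 7 HoxB genes (Hoxb3, Hoxb4, Hoxb5, Hoxb6, Hoxb7 and Hoxb9), and Hoxa2, Hoxc6, Msx2 and Dlx3. In the same way 12 genes (27.3%, against 5.47%) were above background in untreated WT but not in untreated Rela-/-Relb-/-Rel-/- cells, and Hoxc6 and Msx2 were in both sets. The other 10 were Hoxc8, Irx1, Irx3, Irx5, Lhx9, Meox1, Msx1, Tbx3, Tbx6 and Twist2.

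**Figure D1:**
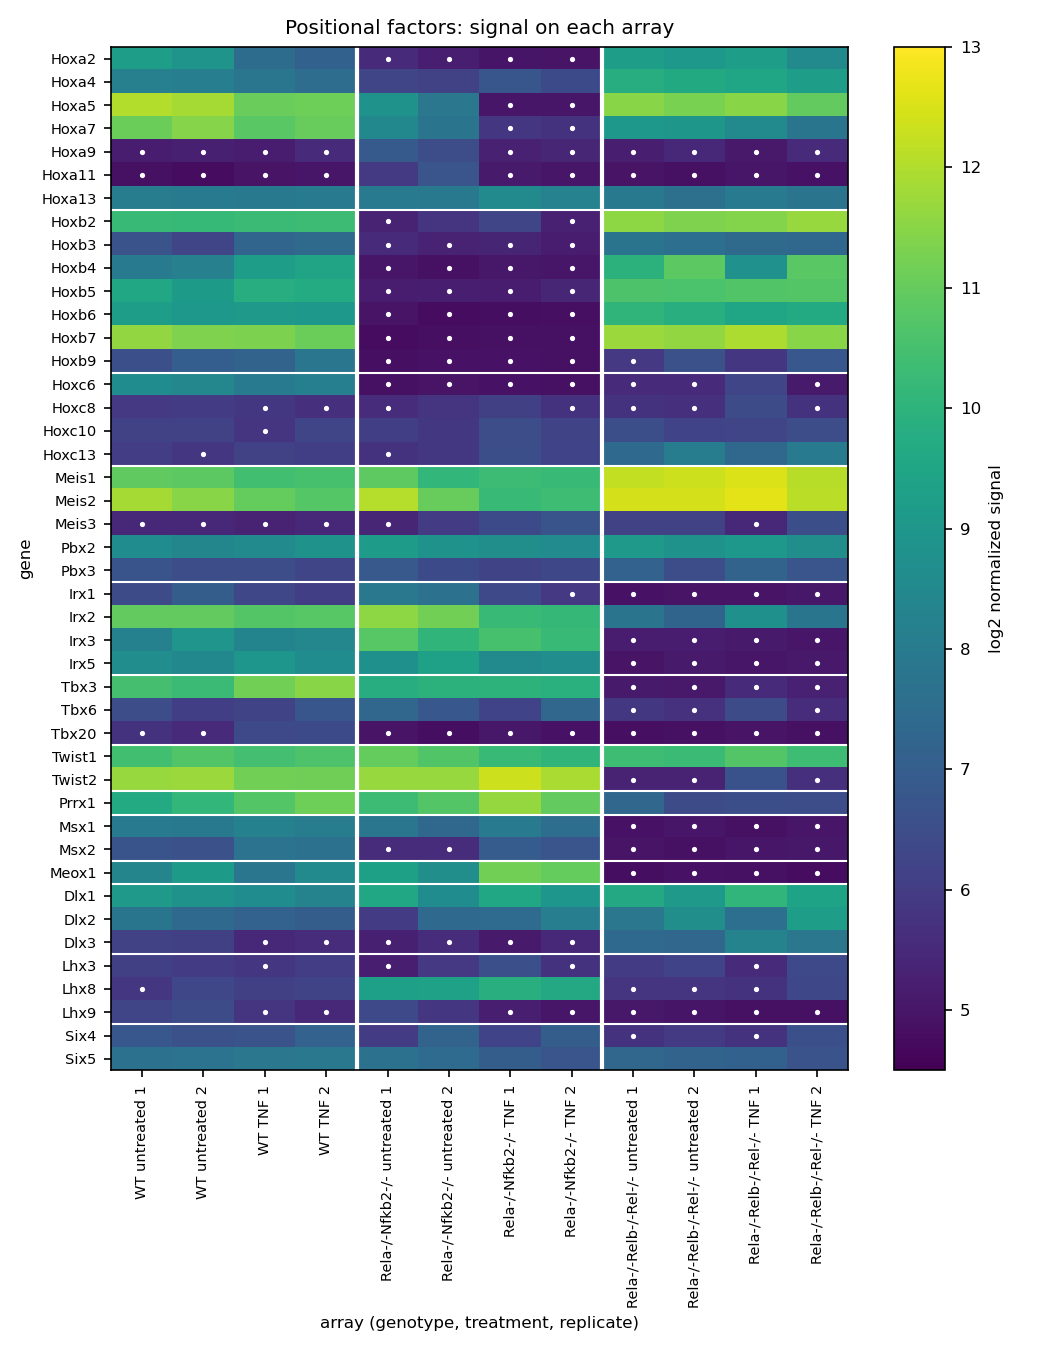
Log2 normalized signal (colour) of the 44 genes (rows, by family) on each of the 12 arrays (columns). A white dot marks a signal that was not above background. The HoxB rows are dark in the 4 Rela-/-Nfkb2-/- columns, and Irx1, Irx3, Irx5, Tbx3, Msx1, Msx2 and Meox1 are dark in the 4 Rela-/-Relb-/-Rel-/- columns.

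Some genes owe their place to 1 group. Hoxa9 and Hoxa11 were above background on both arrays of untreated Rela-/-Nfkb2-/- cells and on no other array, Tbx20 passed only through TNF-treated WT cells, and Hoxc8 only through untreated WT cells. These 4 had to read high in those groups, so their tests below are not independent of how they were chosen. Hoxc6 passed only through the 2 WT groups, so its tests against the mutant lines have the same limit. Lhx9 passed only through untreated WT and untreated Rela-/-Nfkb2-/- cells, which limits its TNF tests and its tests against Rela-/-Relb-/-Rel-/- cells likewise. Just inside the detection limit lay Hoxc8, with a higher detection p-value of the pair of arrays of 0.0451, and Lhx3 and Hoxa11 with 0.0363. Just outside lay Hoxc4 with 0.0589 and Hoxa3 with 0.0602. The families differed in how many members were seen. All 5 TALE genes and both Twist genes were detected, 7 of 10 HoxA, 7 of 10 HoxB, 4 of 9 HoxC and 4 of 6 Irx genes, but 3 of 11 T-box genes, 3 of 8 Lhx genes and 0 of 2 Pitx genes. Tbx4, Tbx5 and Pitx1, known for the choice between forelimb and hindlimb, were among those not detected.

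The first comparison asks how the untreated Rela-/-Nfkb2-/- line differed from untreated WT cells. The HoxB cluster was at or near background in the mutant line, and Hoxa2, Hoxa4, Hoxa5 and Hoxa7 were lower. Of the 44 genes, 20 differed (45.5%), against 20.5% of all features. In all, 5 were higher (11.4%, against 9.85% of all features) and 15 lower (34.1%, against 10.6%). The median absolute log2 difference was 0.68 for the 44 genes and 0.35 for all features.

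All 7 HoxB genes were lower. Hoxb7, which is used in the trunk, read 11.62 and 11.36 on the untreated WT arrays, 4.78 and 4.85 on the untreated Rela-/-Nfkb2-/- arrays and 11.73 and 11.61 on the untreated Rela-/-Relb-/-Rel-/- arrays. The Rela-/-Nfkb2-/- arrays were at background, and the other lines overlapped. The gene was at least 52.5-fold below WT in Rela-/-Nfkb2-/- cells (difference -6.68 ± 0.19, adjusted p = 8.32e-08, limma).

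Hoxb2, a gene of the hindbrain and branchial arches, read 10.26 and 10.20 in WT, 5.32 and 5.78 in Rela-/-Nfkb2-/- and 11.56 and 11.36 in Rela-/-Relb-/-Rel-/- cells. Only 1 of the 2 Rela-/-Nfkb2-/- arrays was above background, no groups overlapped, and the difference from WT was -4.68 ± 0.30 (adjusted p = 7.30e-06, limma). Hoxb5 read 9.58 and 9.14 in WT, 5.15 and 5.20 in Rela-/-Nfkb2-/- and 10.63 and 10.59 in Rela-/-Relb-/-Rel-/- cells. It was at least 12-fold below WT in Rela-/-Nfkb2-/- cells (adjusted p = 5.60e-07, limma), again with no overlap.

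Hoxb6 followed the same order, with 9.27 and 9.02 in WT, 4.94 and 4.77 in Rela-/-Nfkb2-/- and 10.07 and 9.86 in Rela-/-Relb-/-Rel-/- cells. It was at least 10.3-fold lower in Rela-/-Nfkb2-/- cells (adjusted p = 2.92e-07, limma). Hoxb4, which also has a role in blood progenitors, read 8.02 and 8.19 in WT, 5.03 and 4.89 in Rela-/-Nfkb2-/- and 9.96 and 10.86 in Rela-/-Relb-/-Rel-/- cells. It was at least 5.01-fold lower (adjusted p = 0.00328, limma), and the wide pair in the Rela-/-Relb-/-Rel-/- line lay above the other lines. Hoxb3 and Hoxb9 were at least 1.61-fold and 2.06-fold lower than in WT cells (adjusted p = 0.00349 and 0.0043, limma).

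Of the 7 HoxA genes, 4 were lower in this line. Hoxa2, the most anterior HoxA gene detected and a patterning gene of the branchial arches, read 9.28 and 8.90 in WT and 9.27 and 9.04 in Rela-/-Relb-/-Rel-/- cells, which overlapped, and 5.53 and 5.20 in Rela-/-Nfkb2-/- cells, at background. It was at least 9.94-fold below WT in Rela-/-Nfkb2-/- cells (adjusted p = 1.44e-05, limma). Hoxa5, a gene of the neck, lung and upper trunk, read 12.02 and 11.87 in WT, 8.86 and 7.86 in Rela-/-Nfkb2-/- and 11.50 and 11.30 in Rela-/-Relb-/-Rel-/- cells. The Rela-/-Nfkb2-/- pair was apart by 1 log2 unit but far below the others, with a difference from WT of -3.58 ± 0.30 (12-fold, adjusted p = 3.65e-05, limma).

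Hoxa7 read 11.09 and 11.45 in WT, 8.48 and 7.77 in Rela-/-Nfkb2-/- and 9.02 and 9.01 in Rela-/-Relb-/-Rel-/- cells. Both mutant lines lay below WT, by -3.14 ± 0.29 in the former (adjusted p = 6.95e-05, limma) and by -2.25 ± 0.29 in the latter (adjusted p = 2.88e-04, limma). Hoxa4 was 3.9-fold below WT in Rela-/-Nfkb2-/- cells (adjusted p = 8.03e-05, limma).

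Hoxa9 and Hoxa11 were detected on both arrays of this group alone, so that they could only read higher here, and their calls are a description. Hoxa9, which is used from the lower trunk and in the limb, read 6.91 and 6.50 in untreated Rela-/-Nfkb2-/- cells and 5.16 to 5.45 in the other untreated lines, where it was at background, and was at least 1.79-fold higher than in WT (adjusted p = 0.0014, limma). Hoxa11, a gene of the forearm and the uterus, read 5.95 and 6.74 against 4.78 to 4.94 and was at least 1.39-fold higher (adjusted p = 0.0014, limma). Hoxa13, the digit and genital tubercle gene at the end of the cluster, read between 7.65 and 8.06 on the 6 untreated arrays and did not pass in any of the untreated comparisons. Its signal rests on 1 probe, as its other probes were above background on 0 arrays. Among the HoxC genes, Hoxc6 read 8.63 and 8.44 in WT, 4.87 and 4.94 in Rela-/-Nfkb2-/- and 5.52 on both Rela-/-Relb-/-Rel-/- arrays. It was at background in both mutant lines, at least 6.76-fold (adjusted p = 3.73e-05, limma) and 6.16-fold lower (adjusted p = 6.02e-05, limma) than in WT cells. It passed detection through WT cells alone, so these calls are a description. Hoxc8 and Hoxc10 were near background in every line, between 5.58 and 6.55 on the 6 untreated arrays.

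**Figure D2:**
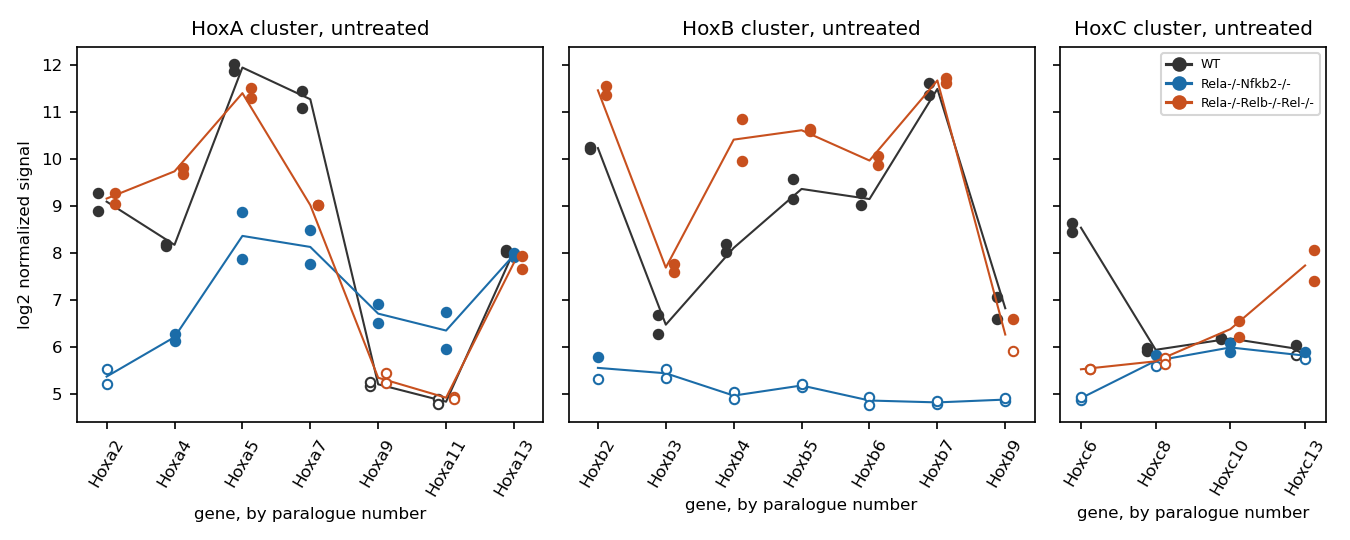
Log2 normalized signal of the detected HoxA, HoxB and HoxC genes on the untreated arrays, in the order of their paralogue numbers. Each point is 1 array, open where not above background, and lines join the means of 2 arrays of a line. Levels of different genes come from different probes and are not comparable. The HoxB line of Rela-/-Nfkb2-/- cells lies at 4.77 to 5.78, below that of both other lines at every gene.

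As members of a cluster moved together, the stretch before the start site was read for the genes with a window. RefSeq promoter windows of assembly GRCm38.p6, 250 bases before to 50 after the start, were at hand for 27 of the 44 genes (29 windows), including Hoxb4 as the only HoxB gene. Their median GC content was 61.0% against 52.7% for all 32851 windows, and the median ratio of observed to expected CpG was 0.71 against 0.38. The windows were searched on both strands for TGATNNAT, bound by Pbx with Hox partners, for TGACAG, bound by Meis, for TAATTA, a homeodomain core, and for the NFκB consensus named κB. TGATNNAT was found in 2 of the 27 genes (Hoxa2 and Tbx6) and in 8.8% of all windows, and TGACAG in 4 of 27 (Hoxa2, Lhx9, Six5 and Twist2) and in 19.2%. TAATTA was found in 3 of 27 (Msx2, Prrx1 and Tbx6) and in 5.3%, and the κB motif in 3 of 27 (Hoxa13, Lhx3 and Tbx6) and in 8.5%. An excess over all windows was not tested. No matches of different motifs overlapped in these windows. The windows of Hoxa2 (chr6:52164782-52165081, minus strand) and Hoxb4 (chr11:96318017-96318316, plus strand) are shown as those of genes at background in Rela-/-Nfkb2-/- cells, with matches in capitals. In Hoxa2 the reverse complement of TGATNNAT begins at -111 and TGACAG at -44 relative to the start, and Hoxb4 has no match.
Hoxa2: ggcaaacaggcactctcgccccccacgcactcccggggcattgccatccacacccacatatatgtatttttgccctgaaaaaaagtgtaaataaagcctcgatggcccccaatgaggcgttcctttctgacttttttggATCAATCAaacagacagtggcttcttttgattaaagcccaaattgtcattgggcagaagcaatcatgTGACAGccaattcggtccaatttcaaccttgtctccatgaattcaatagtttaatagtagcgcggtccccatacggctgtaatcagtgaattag
Hoxb4: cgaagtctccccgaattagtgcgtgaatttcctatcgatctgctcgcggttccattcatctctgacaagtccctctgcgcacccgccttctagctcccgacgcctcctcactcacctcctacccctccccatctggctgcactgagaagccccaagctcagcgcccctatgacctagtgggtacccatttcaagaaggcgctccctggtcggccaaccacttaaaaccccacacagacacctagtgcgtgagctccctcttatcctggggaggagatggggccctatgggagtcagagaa

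Outside the Hox clusters fewer genes separated Rela-/-Nfkb2-/- from WT cells. Lhx8, a LIM homeobox gene of the forebrain and of tooth and palate mesenchyme, was higher, with 9.31 and 9.38 in Rela-/-Nfkb2-/- cells, 5.83 and 6.31 in WT and 5.79 and 5.82 in Rela-/-Relb-/-Rel-/- cells. The Rela-/-Nfkb2-/- arrays stood apart from all other untreated arrays, by 3.27 ± 0.23 from WT (adjusted p = 1.22e-05, limma), where 1 of 2 arrays was above background. The Iroquois genes Irx3 and Irx1, which act in patterning of the neural tube, heart and limb, were 3.57-fold and 2.08-fold higher (adjusted p = 0.00147 and 0.00946, limma). Msx2, a homeobox repressor of limb and skull mesenchyme, and Dlx3, a gene of skin appendages and bone, were at least 1.84-fold and 1.29-fold lower (adjusted p = 5.33e-04 and 0.027, limma). Tbx20, best known in the heart, was above background in neither group and read lower (adjusted p = 0.00616, limma). Irx1 did not pass without WT untreated replicate 1 or Rela-/-Nfkb2-/- untreated replicate 1, Dlx3 without either of these or WT untreated replicate 2, and Tbx20 without WT untreated replicate 1, and the 20 genes were then 17 to 20. Twist2, Twist1, Meis1, Meis2 and Prrx1 did not pass, with differences between -0.38 and 0.62.

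The second comparison sets the untreated Rela-/-Relb-/-Rel-/- line against WT cells. Here 5 of the 7 HoxB genes were higher and 0 lower, and Hoxa7 and Hoxc6 were the only Hox genes that were lower. Twist2, Prrx1, Msx1, Msx2, Meox1, Tbx3 and all 4 detected Iroquois genes were lower, while Twist1 and Tbx6 did not pass, with differences of -0.24 and -0.50. The 14 lower genes include Tbx20, which was above background in neither group. Of the 44 genes, 23 differed (52.3%), against 37.7% of all features. In all, 9 were higher (20.5%, against 17.2% of all features) and 14 lower (31.8%, against 20.5%). The median absolute log2 difference was 0.84 for the 44 genes and 0.50 for all features. The epithelial markers Krt8 and Krt14 were high in the same 4 arrays, as given above, and their part in these differences was not tested. The summed linear signal of 12 fibroblast markers was 50292 to 54771 in this line and 43485 to 44782 in WT cells, both untreated, and 8 and 9 of the 12 were above background on both arrays. The single markers went in both directions. Mean signals in this line against WT were lower for Pdgfra (7.96 and 10.11), Pdgfrb (5.84 and 8.95) and Vim (13.28 and 14.49). S100a4 was lower as well (9.30 and 9.75). They were higher for Dcn (14.16 and 12.59), Col3a1 (12.09 and 8.98) and Col1a1 (13.73 and 13.11). Col1a2 (11.68 and 11.06) and P4ha1 (10.35 and 9.82) were higher too. Lum (4.84 and 5.87) read near or below background, and Thy1 and Fap were at background in both lines. The part of these markers was not tested either.

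Twist2, a basic helix-loop-helix factor of dermal and other mesenchyme, read 11.69 and 11.72 in WT, 11.69 and 11.68 in Rela-/-Nfkb2-/- and 5.31 and 5.33 in Rela-/-Relb-/-Rel-/- cells. The first lines overlapped, while the last was at background and at least 55.5-fold lower than WT (difference -6.39 ± 0.29, adjusted p = 3.23e-07, limma). Its relative Twist1 did not follow, with 10.42 and 10.68 in WT, 10.99 and 10.69 in Rela-/-Nfkb2-/- and 10.35 and 10.28 in Rela-/-Relb-/-Rel-/- cells, and a difference of the last from WT of -0.24 ± 0.19 (adjusted p = 0.372, limma).

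Tbx3, a T-box repressor of limb and mammary development, read 10.50 and 10.30 in WT, 9.81 and 9.95 in Rela-/-Nfkb2-/- and 5.13 and 5.08 in Rela-/-Relb-/-Rel-/- cells. It was at least 22.4-fold lower in Rela-/-Relb-/-Rel-/- than in WT cells (adjusted p = 4.78e-08, limma), with no overlap of any groups. The probes disagree in size, as the other kept probes of Tbx3 showed differences of -4.18 and -0.60. Meox1, a homeobox gene of the somites, read 8.37 and 9.14 in WT, 9.33 and 8.70 in Rela-/-Nfkb2-/- and 4.82 and 4.90 in Rela-/-Relb-/-Rel-/- cells. Only the last line was at background, at least 7.19-fold below WT (adjusted p = 1.36e-05, limma).

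Prrx1, a marker of limb and facial mesenchyme, was dimmer but still above background, with 9.69 and 10.12 in WT, 10.34 and 10.71 in Rela-/-Nfkb2-/- and 7.30 and 6.45 in Rela-/-Relb-/-Rel-/- cells. The last pair lay below all other untreated arrays, 8.19-fold below WT (difference -3.03 ± 0.33, adjusted p = 9.26e-05, limma). Msx1, a homeobox repressor of tooth, palate and limb bud, read 8.01 and 7.93 in WT, 7.85 and 7.36 in Rela-/-Nfkb2-/- and 4.90 and 5.01 in Rela-/-Relb-/-Rel-/- cells. It was at background only in the last line, at least 4.16-fold below WT (adjusted p = 4.08e-06, limma), and Msx2 was at least 1.68-fold below WT (adjusted p = 1.21e-05, limma).

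All 4 Iroquois genes were lower in Rela-/-Relb-/-Rel-/- than in WT cells. They lie in pairs on different chromosomes, Irx1 and Irx2 on chromosome 13 and Irx3 and Irx5 on chromosome 8. Irx3 read 8.24 and 8.94 in WT, 10.78 and 10.07 in Rela-/-Nfkb2-/- and 5.14 on both Rela-/-Relb-/-Rel-/- arrays, at least 6.41-fold below WT (adjusted p = 1.30e-05, limma). Irx5 read 8.66 and 8.47 in WT, 8.78 and 9.38 in Rela-/-Nfkb2-/- and 4.96 and 5.11 in Rela-/-Relb-/-Rel-/- cells, at least 6.3-fold below WT (adjusted p = 1.99e-06, limma). The chromosome 8 pair was thus at background in 1 line only, as was Irx1.

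Irx2, the other gene on chromosome 13, was above background in every line. It read 10.95 on both WT arrays, 11.55 and 11.19 in Rela-/-Nfkb2-/- and 7.76 and 7.25 in Rela-/-Relb-/-Rel-/- cells, a difference of the last from WT of -3.44 ± 0.30 (10.9-fold, adjusted p = 2.07e-05, limma). No untreated groups overlapped. Irx1 was at least 1.77-fold lower than in WT (adjusted p = 2.35e-04, limma), and Lhx9, a gene of the gonad and limb bud, at least 1.37-fold (adjusted p = 7.89e-04, limma). As said above, the groups that let Lhx9 in limit its call.

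The windows of Twist2 (chr1:91801211-91801510, plus strand) and Msx2 (chr13:53472731-53473030, minus strand), both at background in this line, are shown in the same way. TGACAG begins at -38 relative to the start in Twist2, and TAATTA at -187 in Msx2.
Twist2: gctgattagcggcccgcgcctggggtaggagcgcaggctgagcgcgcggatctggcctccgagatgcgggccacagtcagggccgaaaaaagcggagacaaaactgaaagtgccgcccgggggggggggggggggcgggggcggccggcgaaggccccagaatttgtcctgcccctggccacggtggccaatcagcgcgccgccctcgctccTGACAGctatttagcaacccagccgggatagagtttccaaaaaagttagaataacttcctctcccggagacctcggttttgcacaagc
Msx2: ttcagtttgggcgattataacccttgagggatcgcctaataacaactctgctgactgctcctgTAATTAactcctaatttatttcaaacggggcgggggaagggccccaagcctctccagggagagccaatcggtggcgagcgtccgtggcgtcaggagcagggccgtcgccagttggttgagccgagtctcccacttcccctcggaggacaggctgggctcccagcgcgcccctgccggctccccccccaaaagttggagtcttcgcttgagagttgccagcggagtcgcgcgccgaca

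Of the Hox genes, 6 were higher in Rela-/-Relb-/-Rel-/- than in WT cells from the HoxA and HoxB clusters, and Hoxc13 with them. The values of Hoxb2, Hoxb4, Hoxb5 and Hoxb6 stand above, with differences of 1.22 ± 0.30, 2.31 ± 0.55, 1.25 ± 0.17 and 0.82 ± 0.16 (adjusted p = 0.0108, 0.00917, 4.81e-04 and 0.00321, limma). Hoxb3 was 2.32-fold and Hoxa4 2.95-fold higher (adjusted p = 7.09e-04 and 1.73e-04, limma), and a further kept probe of Hoxb3 showed a difference of 0.33 in place of 1.22. Hoxb2 did not pass without either WT untreated array or Rela-/-Relb-/-Rel-/- untreated replicate 1, nor Hoxb4 without WT untreated replicate 1 or Rela-/-Relb-/-Rel-/- untreated replicate 2, and the 23 genes were then 21 or 22. Hoxb7, Hoxa2 and Hoxa5 did not pass, with differences of 0.18, 0.06 and -0.54.

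Meis1, a cofactor of Hox proteins, read 10.91 and 10.85 in WT, 10.88 and 10.13 in Rela-/-Nfkb2-/- and 12.23 and 12.34 in Rela-/-Relb-/-Rel-/- cells. Only the last stood apart, 2.64-fold above WT (difference 1.40 ± 0.25, adjusted p = 0.00187, limma). Meis2, the second Meis gene, read 12.46 and 12.45 in this line against 11.85 and 11.50 in WT cells and did not pass (difference 0.78 ± 0.32, adjusted p = 0.0866, limma). Dlx3 was 2.31-fold and Hoxc13, a gene of hair and nails, 3.48-fold higher (adjusted p = 0.00123 and 5.70e-04, limma).

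**Figure D3:**
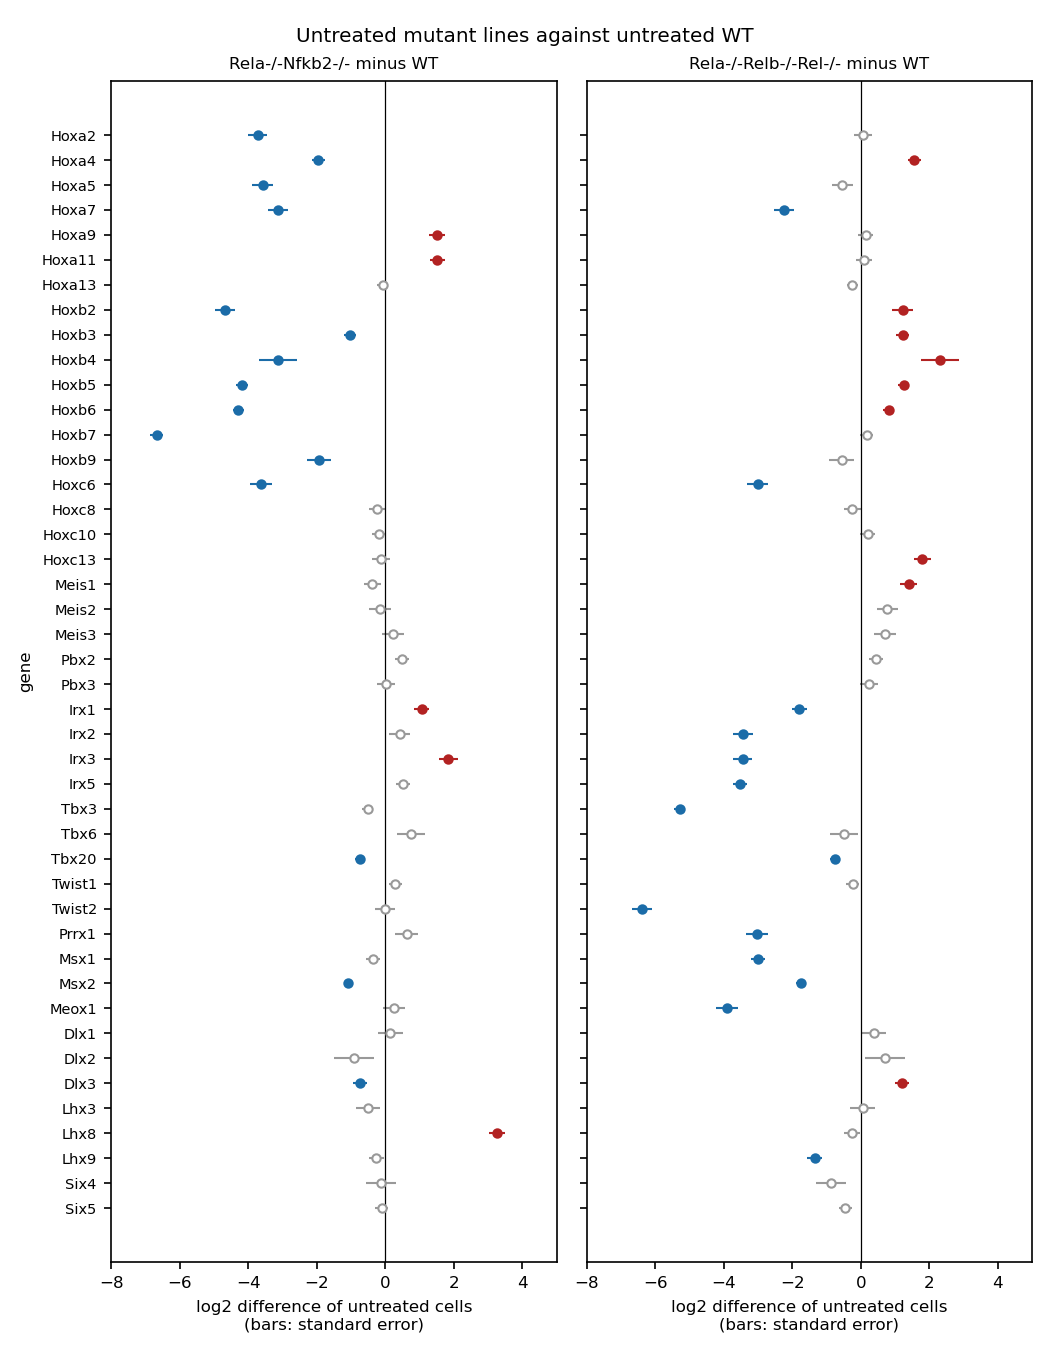
Log2 difference of each untreated mutant line from untreated WT cells (horizontal axis) for the 44 genes (vertical axis), with standard errors from limma (n = 2 arrays in each group). Red points are higher and blue points lower at an adjusted p under 0.05, and open points did not pass. The HoxB genes lie at -6.68 to -1.03 on the left and at -0.56 to 2.31 on the right, while Twist2 lies at -0.02 on the left and -6.39 on the right.

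Set directly against each other, the mutant lines differed at more of these genes than either did from WT. Of the 44 genes, 29 differed between untreated Rela-/-Relb-/-Rel-/- and Rela-/-Nfkb2-/- cells (65.9%), against 33.6% of all features. In all, 14 were higher in the Rela-/-Relb-/-Rel-/- line (31.8%, against 15.8%) and 15 lower (34.1%, against 17.8%). The median absolute log2 difference was 1.70 for the 44 genes and 0.44 for all features. The 14 that were higher were Hoxa2, Hoxa4, Hoxa5, Hoxa7, all 7 HoxB genes, Hoxc13, Meis1 and Dlx3. The HoxB differences ran from 1.39 to 6.86, with Hoxb7 at least 59.4-fold, Hoxb5 at least 28.5-fold and Hoxb4 at least 24.8-fold higher (adjusted p = 3.07e-08, 6.40e-08 and 6.66e-05, limma). Among the 15 that were lower, Twist2 was at least 54.7-fold, Irx3 at least 22.9-fold, Tbx3 at least 15.6-fold, Lhx8 at least 10.8-fold, Irx5 at least 8.98-fold and Meox1 at least 8.58-fold lower. Msx2 is counted among the 15 but was above background in neither line. The comparisons share arrays, so they are not independent of each other. Hoxa7 passed at an adjusted p of 0.0429 and Tbx6, a gene of the presomitic mesoderm, at 0.0408 (limma). Hoxa7 failed when any of 9 arrays was left out and Tbx6 when any of 8 was, and the 29 genes were then 26 to 29. Hoxb9 failed without Rela-/-Nfkb2-/- untreated replicate 1 or Rela-/-Relb-/-Rel-/- untreated replicate 2, and 33 genes passed without either Rela-/-Relb-/-Rel-/- TNF array.

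The TNF response was the second question put to these genes. In WT cells few changed in the fit with 1 shared estimate of the spread. Of the 44 genes, 4 changed (9.09%), against 1.2% of all features. Of these 3 rose (6.82%, against 0.857%) and 1 fell (2.27%, against 0.339%). The median absolute log2 change was 0.31 for the 44 genes and 0.18 for all features. The spread was unequal between lines. The standard deviation of the difference between replicates was 0.27 and 0.30 in untreated and TNF-treated WT cells. It was 0.67 and 0.46 in Rela-/-Nfkb2-/- cells and 0.46 and 0.65 in Rela-/-Relb-/-Rel-/- cells. In fits of the compared groups alone 8 of the 44 genes and 352 features passed in WT cells. In Rela-/-Nfkb2-/- cells 4 genes and 335 features did, so the order of these lines by count depends on the fit.

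Hoxa2 fell from 9.28 and 8.90 to 7.51 and 7.14 in WT cells, a change of -1.77 ± 0.27 (3.4-fold, adjusted p = 0.0186, limma). The groups did not overlap. In Rela-/-Relb-/-Rel-/- cells it read 9.27 and 9.04 before and 9.28 and 8.52 after TNF, which overlapped, and in Rela-/-Nfkb2-/- cells it was at background throughout.

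Msx2 rose in WT cells from 6.70 and 6.62 to 7.75 and 7.68, by 1.05 ± 0.14 (2.08-fold, adjusted p = 0.00768, limma). In Rela-/-Nfkb2-/- cells it rose from background, 5.58 and 5.57, to 6.99 and 6.74, at least 2.12-fold (adjusted p = 4.72e-04, limma). It was at background on all 4 arrays of Rela-/-Relb-/-Rel-/- cells, between 4.88 and 5.04. Msx2 was the 1 gene that rose in both lines with a TNF call.

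Tbx3 read 10.50 and 10.30 in untreated and 11.20 and 11.50 in TNF-treated WT cells, a rise of 0.95 ± 0.16 (1.93-fold, adjusted p = 0.0326, limma) with no overlap. In Rela-/-Nfkb2-/- cells it read 9.81 and 9.95 before and 10.01 and 9.88 after, which overlapped, a change of 0.07 ± 0.16. Tbx20 read 5.75 and 5.51 in untreated and 6.39 and 6.41 in TNF-treated WT cells, at least 1.45-fold higher (adjusted p = 0.0445, limma), and its place among the 44 genes rests on the latter group.

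The 4 calls in WT cells rested on every WT array, since 0 genes passed when any 1 of the 4 WT arrays was left out. When Rela-/-Nfkb2-/- TNF replicate 1 or 2 or Rela-/-Relb-/-Rel-/- untreated replicate 1 or 2 was left out, 2 passed, and Tbx20 failed without any 1 of the 12 arrays. With arrays scaled to their median in place of quantile normalization, which moved the median change of all features to -0.23, 1 gene passed, Hoxa2, and the split was 0 higher and 1 lower in place of 3 and 1. Arrays that share a genotype and a replicate number deviated together. With that number as a block 6 genes passed, with Hoxb3 (0.88, adjusted p = 0.0441, limma) and Hoxb4 (1.26, adjusted p = 0.0463, limma) added to the 4. Of all 10031 features 290 then passed, against 120 without the block.

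In Rela-/-Nfkb2-/- cells 12 of the 44 genes changed with TNF (27.3%), against 19.7% of all features. Of these 2 rose (4.55%, against 8.03%) and 10 fell (22.7%, against 11.6%). Scaled to the median, which moved the median change of all features to -0.28, 2 rose and 9 fell, against 2.06% and 13.1% of all features. The genes that fell were Hoxa5, Hoxa7, Hoxa9 and Hoxa11 and, outside the Hox clusters, Irx1, Irx2, Lhx9, Meis2, Six5 and Twist1. The median absolute log2 change was 0.39 for the 44 genes and 0.37 for all features. With this line fitted alone, 4 of the 12 passed, 1 rising and 3 falling, and 335 features did.

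Hoxa5 fell to background, from 8.86 and 7.86 to 5.01 and 5.02, at least 5.17-fold (change -3.34 ± 0.30, adjusted p = 1.71e-04, limma). Hoxa7 went from 8.48 and 7.77 to 5.85 and 5.76, at background, at least 4.39-fold (adjusted p = 9.97e-04, limma). Neither gene's groups overlapped. Hoxa9 went from 6.91 and 6.50 to 5.28 and 5.42 and Hoxa11 from 5.95 and 6.74 to 5.11 and 5.03, both to background, at least 1.64-fold and 1.28-fold lower (adjusted p = 0.00391 and 0.00535, limma). For the latter pair the untreated group is also the one that let them in.

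Of the other HoxA genes, Hoxa4 and Hoxa13 did not fall, and Hoxa2 was at background before and after TNF, so no fall could be seen. Hoxa4 read 6.28 and 6.13 before and 6.76 and 6.41 after TNF and Hoxa13 7.99 and 7.92 before and 8.54 and 8.28 after, with changes of 0.38 ± 0.19 (adjusted p = 0.189, limma) and 0.45 (adjusted p = 0.0824, limma). With the replicate block Hoxa13 passed (adjusted p = 0.0416, limma). The HoxB genes stayed at or near background, with changes between -0.16 and 0.24. Of the HoxD cluster, the homologous cluster on another chromosome, 5 of 6 tested genes also fell in this line (83.3%, against 11.6% of all features). Before TNF 5 of 6 had been higher there than in WT cells (83.3%, against 9.85% of all features). Hoxd8 and Hoxd12 were above background on both arrays of the untreated group of this line alone, so their calls are not independent of detection. Hoxd10 and Hoxd13 passed detection only through the untreated and TNF-treated groups of this line. They too had to read high there, so their higher signal than in WT is not independent of detection. Hoxd10 changed by -5.05 ± 0.27 (adjusted p = 1.39e-05, limma) and Hoxd12 was at least 8.62-fold lower after TNF (adjusted p = 1.02e-06, limma).

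Meox1 rose in Rela-/-Nfkb2-/- cells from 9.33 and 8.70 to 11.20 and 10.99, by 2.08 ± 0.32 (4.23-fold, adjusted p = 0.00239, limma), with no overlap. In WT cells it read 8.37 and 9.14 before and 7.84 and 8.52 after, which overlapped, and in Rela-/-Relb-/-Rel-/- cells it was at background throughout. Irx1 fell from 7.91 and 7.68 to 6.38 and 5.90, a change of -1.65 ± 0.22 (adjusted p = 0.00148, limma), and 1 of the treated arrays was above background. Irx2 fell from 11.55 and 11.19 to 10.26 and 10.16, 2.23-fold (change -1.16 ± 0.30, adjusted p = 0.0262, limma). The chromosome 8 pair did not pass, with Irx3 at 10.53 and 10.22 and Irx5 at 8.52 and 8.68 after TNF.

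Meis2 and Twist1 fell as well, Meis2 from 12.04 and 11.01 to 10.27 and 10.37, 2.3-fold (adjusted p = 0.0292, limma), and Twist1 from 10.99 and 10.69 to 10.26 and 10.05, 1.6-fold (adjusted p = 0.0354, limma). Six5, a homeobox gene of muscle and lens, went from 7.70 and 7.48 to 7.02 and 6.73, 1.64-fold (adjusted p = 0.0273, limma). Lhx9 passed detection only through untreated WT and Rela-/-Nfkb2-/- cells, so its fall is not independent of how it was chosen. It went from 6.36 and 5.85 to background at 5.22 and 5.03, at least 1.08-fold lower (adjusted p = 0.0113, limma). None of these groups overlapped.

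When Rela-/-Nfkb2-/- TNF replicate 2 was left out 7 genes passed, and when TNF replicate 1 or untreated replicate 1 of this line was left out 8 did. Irx2, Meis2, Six5 and Twist1 failed without any of these 3 arrays, and Lhx9 without TNF replicate 2 or untreated replicate 1. Twist1 also failed without any 1 of 6 arrays of the other lines, and the 7 other calls passed with each of the 12 arrays left out in turn. With the replicate block 16 genes passed, as Dlx2 (1.12, adjusted p = 0.0121, limma), Hoxc13 (0.56, adjusted p = 0.0315, limma) and Meis3 (0.87, adjusted p = 0.0294, limma) joined besides Hoxa13, all upward, which gave 6 that rose and 10 that fell. Of all 10031 features 3324 then passed, 1539 rising and 1785 falling, so 16 of the 44 genes is near the share of all features.

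**Figure D4:**
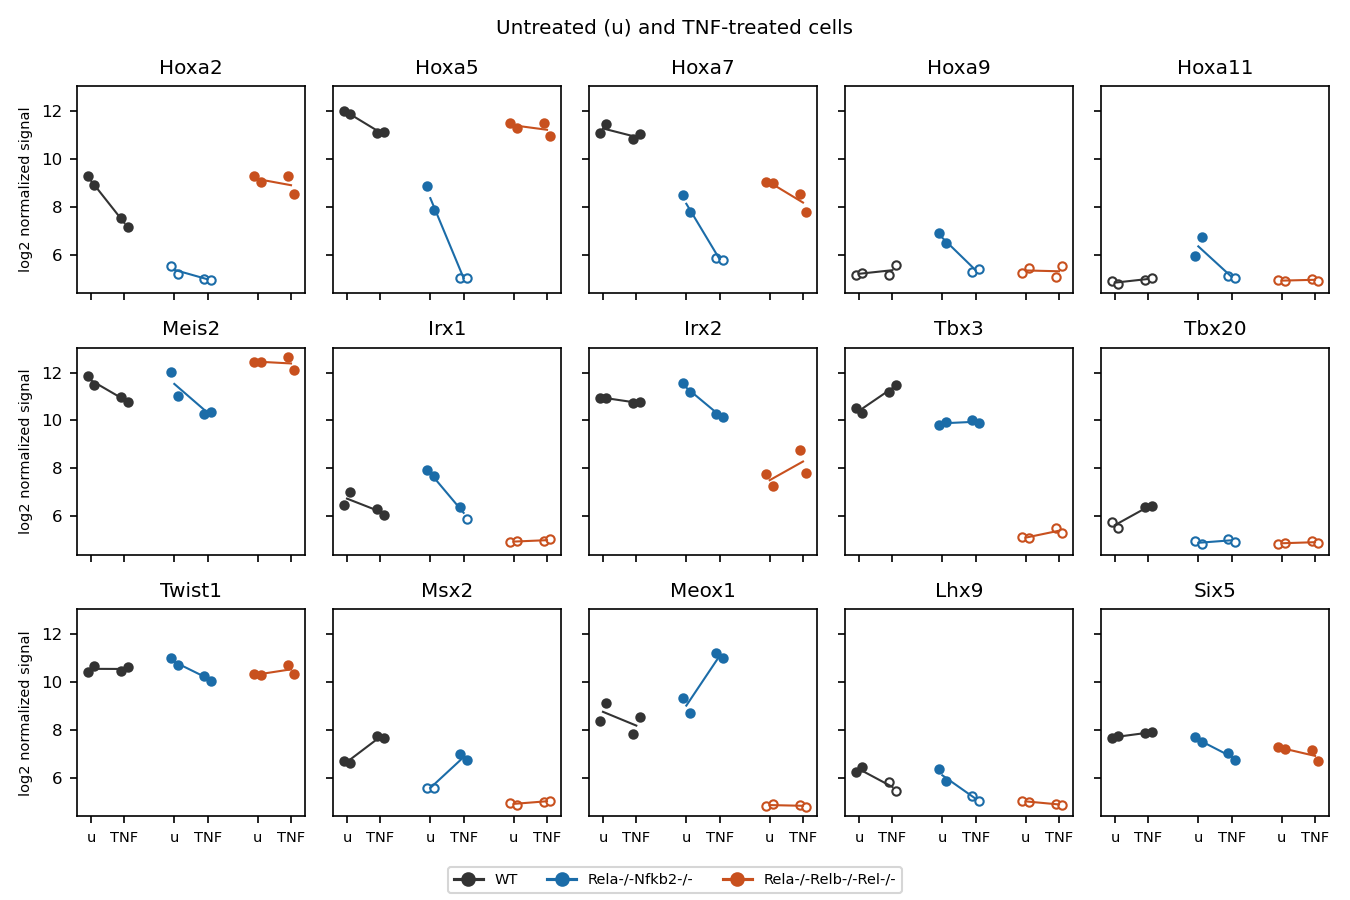
Log2 normalized signal of the 15 genes that passed in a TNF response, on each array of untreated (u) and TNF-treated cells of the 3 lines. Points are single arrays, open where not above background, and lines join the means of 2 arrays. Hoxa5 falls to 5.01 and 5.02 in Rela-/-Nfkb2-/- cells, where Meox1 rises to 11.20 and 10.99.

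In Rela-/-Relb-/-Rel-/- cells 0 of the 44 genes changed with TNF by limma, against 2.18% of all features (1.39% higher and 0.798% lower), and 4 had an unadjusted p under 0.05. The median absolute log2 change was 0.14 for the 44 genes and 0.22 for all features. With the replicate block 2 passed, Dlx3 (0.73, adjusted p = 0.0288, limma) and Irx2 (0.78, adjusted p = 0.0354, limma), and of all 10031 features 663 did. The methods' t-test with Benjamini-Hochberg adjustment passed 0 of all features in this line, as did a fit of this line alone. Their 0 for the 44 genes therefore cannot show a lack of response. Dlx3 read 7.42 and 7.29 before and 8.30 and 7.88 after TNF, without overlap, and Irx2 7.76 and 7.25 before and 8.77 and 7.80 after, also without overlap. Without Rela-/-Relb-/-Rel-/- TNF replicate 2, 1 gene passed. Twist2, at background before TNF, read 6.65 and 5.64 after it, of which the first was above background (adjusted p = 0.19, limma).

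The differences between responses were tested in the same fit. Between WT and Rela-/-Nfkb2-/- cells 5 of the 44 genes responded differently (11.4%), against 4.09% of all features. Of these 4 were higher in WT (9.09%, against 2.92%) and 1 lower (2.27%, against 1.17%). Hoxa5, Hoxa7, Hoxa9 and Hoxa11 had a response higher in WT by 2.50 ± 0.42, 1.96 ± 0.41, 1.51 ± 0.32 and 1.43 ± 0.32 (adjusted p = 0.0155, 0.0354, 0.0362 and 0.0441, limma), and Hoxa5 itself changed in WT by -0.84 ± 0.30 (adjusted p = 0.337, limma). Meox1 responded less in WT, with a difference of -2.66 ± 0.45 (adjusted p = 0.015, limma). All 4 HoxA genes were at background in TNF-treated Rela-/-Nfkb2-/- cells, and Hoxa9 and Hoxa11 in WT cells too. Without WT untreated replicate 2, WT TNF replicate 1 or either Rela-/-Nfkb2-/- TNF array 0 genes passed, without WT untreated replicate 1 or WT TNF replicate 2 only Meox1 did, without either untreated Rela-/-Relb-/-Rel-/- array 2 did, and without Rela-/-Nfkb2-/- untreated replicate 1 3 did. Scaled to the median, 2 passed, 1 in each direction, against 1.82% of all features higher and 0.239% lower. With the replicate block 12 passed, 8 higher and 4 lower, among them Hoxa2 (-1.37, adjusted p = 0.0163, limma), Hoxa4 (-0.87, adjusted p = 0.0411, limma) and Irx1 (1.11, adjusted p = 0.0489, limma). Of all 10031 features 1037 then passed, 632 higher and 405 lower.

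Between Rela-/-Nfkb2-/- and Rela-/-Relb-/-Rel-/- cells 5 genes responded differently (11.4%), against 4.97% of all features. Meox1 and Msx2 were higher in Rela-/-Nfkb2-/- cells (4.55%, against 1.33%), by 2.11 ± 0.45 and 1.18 ± 0.20 (adjusted p = 0.0313 and 0.0122, limma). Hoxa5, Irx1 and Irx2 were lower (6.82%, against 3.65%), with differences of -3.15 ± 0.42, -1.71 ± 0.32 and -1.94 ± 0.42 (adjusted p = 0.00421, 0.0182 and 0.0361, limma). Meox1, Msx2 and Irx1 were at background in Rela-/-Relb-/-Rel-/- cells with and without TNF. The Hoxa5 difference passed with each array left out in turn. Left out singly, Rela-/-Relb-/-Rel-/- untreated replicate 1 left 1 gene, untreated replicate 2 of that line or either Rela-/-Nfkb2-/- TNF array left 2, and Rela-/-Nfkb2-/- untreated replicate 2 gave 8. Scaled to the median, which moved the median difference of all features to -0.33, 4 passed, 0 higher and 4 lower, in place of 2 and 3, against 0.409% of all features higher and 3.17% lower. With the replicate block 10 passed, 2 higher and 8 lower, and Hoxa7, Hoxa9, Hoxa11, Dlx3 and Twist1 joined.

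Between WT and Rela-/-Relb-/-Rel-/- cells 0 of the 44 genes responded differently by limma (0.847% of all features did, 0.409% higher and 0.439% lower), and 10 had an unadjusted p under 0.05. Msx2 and Dlx3 came nearest, at 0.94 ± 0.20 and -1.36 ± 0.28 (adjusted p = 0.0794 and 0.0751, limma). With the replicate block 3 passed, Dlx3 (-1.36, adjusted p = 0.0238, limma), Hoxa2 (-1.51, adjusted p = 0.0288, limma) and Hoxb4 (1.85, adjusted p = 0.0463, limma). Without Rela-/-Relb-/-Rel-/- TNF replicate 2, 2 passed. The responses of 2 lines share no arrays, but each line enters 2 of the 3 differences.

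Of the 44 genes, 10 passed in none of the 9 comparisons without a replicate block, namely Pbx2, Pbx3, Meis3, Dlx1, Dlx2, Hoxa13, Hoxc8, Hoxc10, Lhx3 and Six4. With the block Dlx2, Hoxa13 and Meis3 passed for TNF in Rela-/-Nfkb2-/- cells, as given above, and Dlx2 in the response difference of WT from that line (adjusted p = 0.0283, limma). Their differences from WT ran from -0.91 to 0.49 in untreated Rela-/-Nfkb2-/- and from -0.87 to 0.70 in untreated Rela-/-Relb-/-Rel-/- cells. The Hox cofactors Pbx2 and Pbx3 were above background on all 12 arrays, at 8.39 to 9.17 and at 6.24 to 7.22. Dlx1 and Dlx2, a linked pair used in the branchial arches and the forebrain, were also above background throughout, at 8.29 to 10.09 and 5.97 to 9.24. Dlx2 read 5.97 and 7.39 in untreated Rela-/-Nfkb2-/- cells, a pair wide enough to overlap the WT values of 7.79 and 7.39. Six4, a muscle gene, Lhx3, a pituitary and motor neuron gene, and Meis3 lay between 5.20 and 7.20 and were at background on at least 1 array each.

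Other genes of body patterning were read from lists chosen alongside. Of 23 other mesenchymal positional factors tested, 7 were higher (30.4%, against 9.85% of all features) and 3 lower (13%, against 10.6%) in untreated Rela-/-Nfkb2-/- than in WT cells. In Rela-/-Relb-/-Rel-/- cells 2 were higher (8.7%, against 17.2%) and 13 lower (56.5%, against 20.5%). Osr1 and Osr2, zinc finger factors of limb and kidney mesenchyme, and Otx1, a head gene, were at least 12-fold, 8.32-fold and 16.8-fold lower in Rela-/-Relb-/-Rel-/- cells (adjusted p = 2.72e-07, 9.60e-08 and 2.83e-07, limma). With TNF 7 of the 23 fell (30.4%, against 11.6%) and 1 rose (4.35%, against 8.03%) in Rela-/-Nfkb2-/- cells, led by Scx, the tendon factor, and Otx1 (both with a change of -3.06, adjusted p = 1.38e-05 and 2.96e-05, limma). Of 13 genes of retinoic acid signalling, which sets anterior Hox expression in embryos, 3 were higher (23.1%, against 17.2%) and 5 lower (38.5%, against 20.5%) in untreated Rela-/-Relb-/-Rel-/- than in WT cells. In Rela-/-Nfkb2-/- cells 2 were higher (15.4%, against 9.85%) and 1 lower (7.69%, against 10.6%). Aldh1a1, an enzyme that makes retinoic acid, and Stra6, the retinol uptake receptor, were at least 125-fold and 18.6-fold higher in the former line (adjusted p = 8.55e-06 and 1.09e-07, limma). Both passed detection only through groups of Rela-/-Relb-/-Rel-/- cells, so they had to read high there and these calls are a description. Of the 5 lower genes, Crabp1 and Cyp26b1 were at least 3.87-fold and 2.28-fold below WT in that line (adjusted p = 7.27e-07 and 0.00481, limma). Of 30 Polycomb and Trithorax genes, which hold Hox genes off or on, 1 was higher (3.33%, against 9.85%) and 7 lower (23.3%, against 10.6%) in Rela-/-Nfkb2-/- cells. In Rela-/-Relb-/-Rel-/- cells 0 were higher by limma (against 17.2% of all features) and 7 lower (23.3%), which is near the 20.5% of all features. The Polycomb gene Cbx7 was lower in both, by 1.12 ± 0.20 and at least 4.24-fold (adjusted p = 0.00445 and 3.59e-06, limma). Of 5 Hedgehog pathway genes, 0 differed between Rela-/-Nfkb2-/- and WT cells by limma (against 20.5% of all features). In Rela-/-Relb-/-Rel-/- cells 1 was higher (20%, against 17.2%) and 2 lower (40%, against 20.5%), and 5 genes are too few to compare these shares.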

How the data were processed

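Per the labels and the study's methods, a service company hybridised the BeadChips, exported them with GenomeStudio (version not given in the sources used here) and normalized them. The authors deposited an intensity and a detection p-value for each of 25697 probes, neither normalized nor background-subtracted. They also deposited background-subtracted, quantile-normalized intensities, used here as an alternative. The genes and lists were chosen with earlier results of these data known.

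In R 4.3.3 with limma 3.58.1, intensities were background-corrected by the detection p-values (normexp, offset 16), quantile-normalized and put on the log2 scale, which compresses differences near background. A probe was kept if both arrays of some group had a detection p-value under 0.05 (13387 were), and the brightest of each gene gave 10031 features. Of 19 calls of genes with a further kept probe, 0 had a probe of opposite sign. This leaves out probes that were not kept. Hoxa9, Hoxa13, Hoxb3, Hoxc10, Irx2, Lhx9, Pbx3, Tbx6 and Tbx20 also had a probe that was above background on 0 arrays. All 12 arrays entered lmFit and eBayes with 1 mean for each of 6 groups (6 residual degrees of freedom, 2.92 prior), and Benjamini-Hochberg adjustment ran within each of 9 comparisons. The test was checked on simulated data with independent errors and 1 spread for each gene over all arrays. The spread of these groups was unequal and same-numbered arrays were correlated, so that check cannot show the error rate here. Same-numbered arrays deviated together within a genotype (correlations of 0.31, 0.67 and 0.70 between untreated and TNF). Those of the mutant lines also did so with each other (0.62 to 0.85), so a pairing within genotype is not established. The fit behind the main counts and p-values has no replicate block, and the block entered as an alternative only. The number of arrays limits the precision. Values on every array are given for the largest 10 differences of each untreated comparison and for genes passing in a TNF comparison. The alternatives tried were another scaling, the authors' normalized values, another offset, other filters, averaged probes, trended and robust variances, replicate blocks, fits of single comparisons, the methods' t-test, and each array left out.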

Additional observations from a re-analysis of the deposited data

Results flagged for a closer look

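In 10 cases the TNF response of a gene differed between lines by a test of the difference itself (limma, Benjamini-Hochberg, n = 2 arrays in each group). Between WT and Rela-/-Nfkb2-/- cells these were Hoxa5 (adjusted p = 0.0155, limma), Hoxa7 (0.0354), Hoxa9 (0.0362), Hoxa11 (0.0441) and Meox1 (0.015). Between Rela-/-Nfkb2-/- and Rela-/-Relb-/-Rel-/- cells they were Hoxa5 (0.00421), Irx1 (0.0182), Irx2 (0.0361), Meox1 (0.0313) and Msx2 (0.0122). Both comparisons use the same Rela-/-Nfkb2-/- arrays, so Hoxa5 and Meox1 in both are not independent findings. In Rela-/-Nfkb2-/- cells Hoxa5 went from 8.86 and 7.86 to 5.01 and 5.02, and Meox1 from 9.33 and 8.70 to 11.20 and 10.99. Irx1, Meox1 and Msx2 were at background in Rela-/-Relb-/-Rel-/- cells with and without TNF, so their differences between the mutant lines carry the Rela-/-Nfkb2-/- response alone. Hoxa9 and Hoxa11, at background in WT cells with and without TNF, were seen on both arrays of untreated Rela-/-Nfkb2-/- cells alone, which is how they were chosen. No cause was tested.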

How the results depend on the processing

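The limits are 2 arrays in each group, lines that cannot be told apart from genotypes, and signals at background, which carry no order. Of 98 calls of single genes over 2062 repeats under an alternative, 1805 kept their call, 257 lost significance and 0 reversed, and 72 calls passed in every alternative other than the t-test and the fits of single comparisons. The counts below run in the order untreated Rela-/-Nfkb2-/- against WT, Rela-/-Relb-/-Rel-/- against WT and Rela-/-Relb-/-Rel-/- against Rela-/-Nfkb2-/- (20, 23 and 29 genes), then TNF in WT, Rela-/-Nfkb2-/- and Rela-/-Relb-/-Rel-/- cells (4, 12 and 0), then the response differences of WT from Rela-/-Nfkb2-/-, of WT from Rela-/-Relb-/-Rel-/- and of Rela-/-Nfkb2-/- from Rela-/-Relb-/-Rel-/- cells (5, 0 and 5). With each array left out in turn they were 17 to 20, 21 to 24 and 26 to 33, then 0 to 3, 7 to 13 and 0 to 1, then 0 to 5, 0 to 2 and 1 to 8.

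Probes above background on all 12 arrays, which hold 12 of the 44 genes, gave 1, 4 and 4, then 0, 4 and 0, then 0, 0 and 0. Of all features, at least 7412 here, 1118, 2537 and 2148 passed in the untreated comparisons and 21, 1419 and 105 in the TNF responses. In the untreated comparisons the excess of the 44 genes over all features was thus not clear in these 12. The methods' t-test after Benjamini-Hochberg gave 0, 13 and 7, then 0, 0 and 0, and at an unadjusted p under 0.05 it gave 18, 27 and 26, then 10, 7 and 0. After adjustment it passed 1 of all features in the first comparison and 0 in each TNF response. Its counts of 0 there cannot show a lack of change. Scaling arrays to their median gave 1 gene for TNF in WT cells and 2 for the response difference of WT from Rela-/-Nfkb2-/- cells. An offset of 50 gave 2 for the latter, and no filter on detection gave 2, 1 and 3 for the response differences. Fits of the compared groups alone gave 8 and 4 for TNF in WT and Rela-/-Nfkb2-/- cells, which reverses the order of these lines. They gave 3 for the last difference. The replicate block within genotype gave 6, 16 and 2 for the TNF responses and 12, 3 and 10 for their differences. It added genes and lost none of those called without it. Of all features 290, 3324 and 663 then passed for the TNF responses, against 120, 1973 and 219 without it. Same-numbered arrays of WT and mutant groups correlated at -0.19 to 0.00, and those of the mutant lines with each other at 0.62 to 0.85. A replicate block across all arrays gave 20, 25 and 31 in the untreated comparisons, including all genes called without it. The cause of these shifts was not tested.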
